A study of Bos taurus with 129 samples.

Results

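Of the 32395 genes in the count table, 3 were examined here as leukocyte immunoglobulin-like receptors (LILR): LOC790255 and LOC618416, which the study annotated as LILRA6, and LILRA4. The 3 were selected by name because results from the healthy cattle of this study, compared between supplement groups, had drawn attention to them. The healthy supplement values are therefore given as a description, and tests are kept for the cattle with bovine respiratory disease (BRD), for BRD against healthy cattle and for the change of the LOC genes over days. Tests that include healthy cattle share their libraries with the choice and are not independent of it. All 3 passed the filter on low counts and were among the 18937 genes tested.

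LILRs are immunoglobulin-domain receptors on the surface of myeloid cells and some lymphocytes, and several of them recognise MHC class I molecules. Activating members have short tails and signal through the adaptor FCER1G, whereas inhibitory members carry tail motifs that recruit phosphatases such as PTPN6. In humans the genes lie together in the leukocyte receptor complex, where the number of copies of LILRA6 differs between people, and LILRA4 is a receptor of plasmacytoid dendritic cells that binds BST2 and dampens their interferon response. BRD is the pneumonia complex of recently shipped young cattle.

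Whole blood RNA came from 26 crossbred beef steers (Bos taurus), sampled 5 times over 60 days (on day 0 and again on days 13, 28, 45 and 60). Of these, 14 were labelled as having BRD within the 60 days (4 AAC, 3 COMBO and 7 INR) and 12 stayed healthy (4 in each supplement group). INR cattle were fed Zn, Mn, Cu and Co as sulfates, AAC cattle were fed amino-acid complexes of the same metals, and COMBO cattle received the complexes together with an oral trace mineral drench. By the methods of the study, the drench was given before shipment, on day 0 and alongside any treatment for illness. COMBO cattle with BRD may therefore have had doses that healthy COMBO cattle did not. All animals had been transported, and they were vaccinated and dewormed on day 0. By the methods of the study, all were vaccinated again between the day 13 and day 28 samples, and were rotated between pens during the study. Their ages and the days of BRD diagnosis are not given in the labels. Supplements were assigned by pen, so the supplement and the pen of enrolment cannot be told apart. AAC cattle with and without BRD shared pens 2 and 8, healthy COMBO cattle were in pen 5 and BRD COMBO cattle in pen 6, and pen 7 held only BRD INR cattle.

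There were 70 libraries from BRD and 59 from healthy cattle, with a total of 31613545 to 61692136 counts each and a median of 44268685. Healthy AAC animal 48 has no library for day 13, since that sample did not form clusters in sequencing, by the methods of the study. The library of INR animal 40 at day 60 was the 1 the study named for low RNA integrity. RefSeq listed all 3 receptors without a chromosome (assembly ARS-UCD2.0, a later build than that of the files), so no position is given. Because LOC790255 and LOC618416 bear the same annotation and may share near-identical sequence, the split of reads between them is uncertain.

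In the BRD cattle, LOC790255 was expressed in every library, and animals differed more from each other than from themselves over time. Levels are given as CPM, counts scaled to the size of the library with TMM factors, as the mean of each animal over its 5 days with the SD over days. Among BRD AAC cattle, the mean LOC790255 level was 329 ± 94.9 CPM in animal 31, 195 ± 54.9 in animal 21, 133 ± 15.6 in animal 9 and 99 ± 16.3 in animal 41 (n = 5 days each). Among BRD COMBO cattle, it was 271 ± 57.9 CPM in animal 16, 148 ± 37.4 in animal 54 and 59.1 ± 20.42 in animal 18. Among the 7 BRD INR cattle, the lowest mean was 47.9 ± 14.8 CPM in animal 23, the median was 124.1 and the highest was 261 ± 50.9 in animal 27. Each supplement group thus held high and low animals, and the ranges of the 3 groups overlapped. The highest animal mean was 6.87 times the lowest over the 14 BRD cattle, whereas within an animal the highest day was 1.304 to 3.00 times the lowest (median 1.76).

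LOC618416 showed the same picture at its own scale, and its counts are not compared with those of LOC790255 as levels because no gene lengths were used. In BRD AAC cattle, the mean LOC618416 level was 67.1 ± 13.8 CPM in animal 21, 58.3 ± 5.32 in animal 9, 41.9 ± 11.7 in animal 31 and 32.4 ± 3.75 in animal 41. In BRD COMBO cattle, it was 90.8 ± 23.2 CPM in animal 16, 26.64 ± 8.17 in animal 54 and 13.7 ± 5.31 in animal 18. In BRD INR cattle, it ranged from 11.9 ± 4.63 CPM in animal 23 to 73.4 ± 13.1 in animal 27, with a median of 44.1. Animals 18 and 23 were the lowest for both genes. Animal 31, the highest of all BRD cattle for LOC790255, was near the middle for LOC618416. The largest animal mean was 7.63 times the smallest, against a median of 1.61 times between the days of 1 animal.

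LILRA4 had low counts, with a median of 50 counts per library against 4684 for LOC790255 and 1649 for LOC618416. It was at 0 in 10 libraries and at or under 3 counts, taken as the floor (0.0482 to 0.0916 CPM, covering counting error only), in 15. In BRD AAC cattle, the mean LILRA4 level was 4.71 ± 1.99 CPM in animal 31, 1.90 ± 0.475 in animal 41, 0.982 ± 0.691 in animal 21 and 0.223 ± 0.118 in animal 9. In BRD COMBO cattle, it was 2.89 ± 2.73 CPM in animal 54, 1.88 ± 0.581 in animal 16 and 0.494 ± 0.398 in animal 18. In BRD INR cattle, it ranged from 0.354 ± 0.226 CPM in animal 39 to 3.14 ± 1.86 in animal 27, with a median of 0.914. Levels moved more between days than those of the other receptors: in INR animal 43, LILRA4 was 0.226 CPM at day 0, 6.42 at day 13, 1.12 at day 28, 1.36 at day 45 and 2.55 at day 60. The median coefficient of variation over the days of a BRD animal was 61.5% for LILRA4, 21.6% for LOC790255 and 19.8% for LOC618416.

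**Figure D1:**
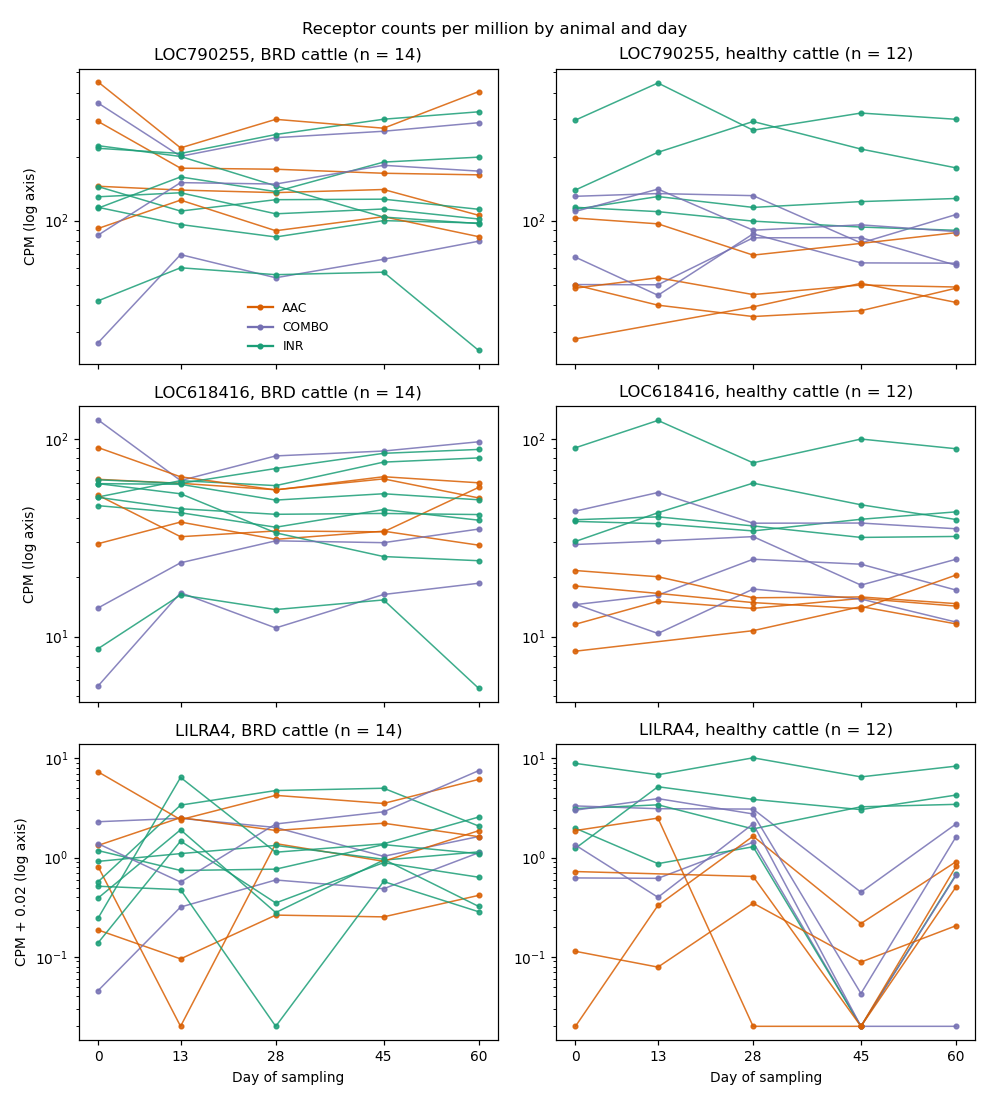
Level of each receptor in CPM (log axis, with 0.02 added for LILRA4 so that 0 can be drawn) against the day of sampling, with 1 line per animal, coloured by supplement, for the 14 BRD and 12 healthy cattle. Animals keep their order in part, more so for LOC790255 and LOC618416 (median rho 0.833 and 0.884 in BRD cattle) than for LILRA4 (0.690), though single animals move, such as INR animal 43, whose LOC790255 level goes from 225 CPM at day 0 to 96.9 at day 60, and 7 of the 12 healthy animals are at or under 3 counts at day 45.

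The share of the variance of log2 CPM (prior count 2) that lay between animals put a number on this stability. It was 87.19% for LOC790255 and 87.97% for LOC618416 over all 26 animals, against a median of 28.7% over the 18937 genes, which placed them at percentiles 98.6 and 98.8. For LILRA4 it was 41.9%, at percentile 68.6. The healthy cattle, in which the choice of these genes favoured differences between animals, did not carry the result alone. Within the 14 BRD cattle the shares were 81.6%, 83.04% and 45.8%, and after the mean of each supplement, status and day was removed they were 84.3%, 85.7% and 59.1% (median of all genes 31.9%).

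The order of the BRD animals was kept in part between days. Over the 10 pairs of days, Spearman's rho across the 14 animals was 0.613 to 0.974 for LOC790255 (median 0.833), 0.754 to 0.965 for LOC618416 (median 0.884) and 0.262 to 0.851 for LILRA4 (median 0.690). These values describe the same animals sampled repeatedly. For LOC790255 the order was kept least from day 0 to days 45 and 60 (0.613 and 0.644). INR animal 43 went from 225 CPM at day 0 to 96.9 at day 60, and COMBO animal 18 went from 26.7 to 80.1 CPM.

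The ratio of the LOC790255 count to the LOC618416 count was steadier in an animal than either count. In the BRD cattle it was lowest in INR animal 39, at 2.06 to 2.29 over the 5 days, and highest in AAC animal 31, at 6.86 to 8.73. COMBO animal 54 followed at 4.86 to 6.38, and the median animal mean was 3.03. The libraries of animal 31 were above all libraries of every other animal, healthy cattle included, whose own ratios ran from 2.35 to 5.98. Of the variance in the log2 ratio, 94.38% lay between animals over all 26 and 95.7% within the BRD group. The SD over days within a BRD animal had a median of 0.08 on the log2 scale, whereas the SD between BRD animal means was 0.53. A ratio of counts depends on gene length and on how shared reads were assigned, so only its differences between animals are read here.

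**Figure D2:**
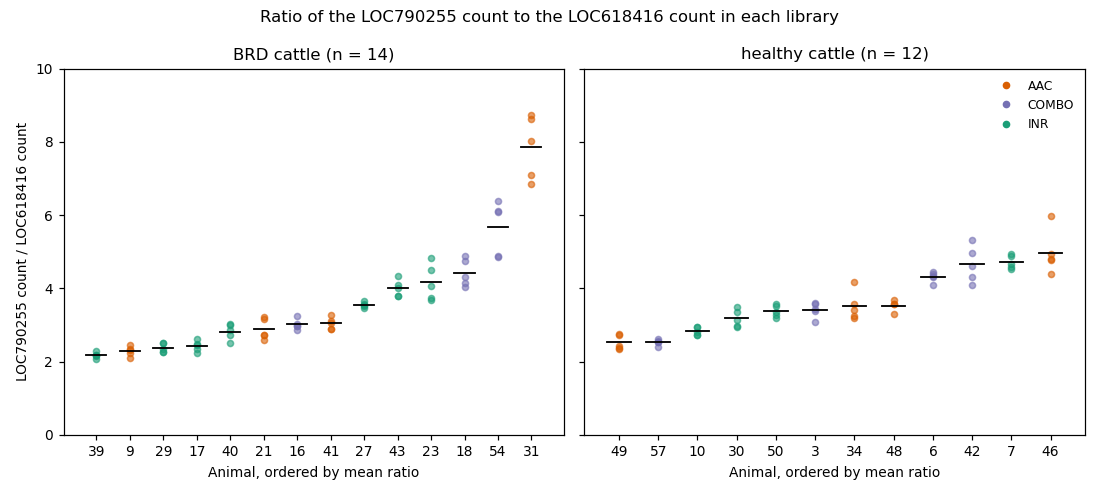
Ratio of the LOC790255 count to the LOC618416 count (linear axis) in each library, with 1 column per animal ordered by its mean ratio (black line) and points coloured by supplement. Animal 39 has the lowest mean, 2.17, and animal 31 the highest, 7.86, with little overlap between animals far apart in the order.

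The first comparison asked whether the receptors differed between AAC and INR cattle that had BRD. At day 0 it compared the animals as enrolled, since the study took differences of that day as not reflecting supplementation. None of the 3 receptors passed an FDR of 0.10 on any day in the edgeR quasi-likelihood test, where 223 genes (1.18%) were called at day 0, 175 (0.924%) at day 13, 135 (0.713%) at day 28, 24 (0.127%) at day 45 and 385 (2.03%) at day 60. Of the 15 tests of the receptors, 1 had an unadjusted p under 0.05 in edgeR, against 10.6% to 16.3% of all genes over the 5 days, and 0 passed with DESeq2 (1 unadjusted). LOC790255 was 245 ± 160 CPM in AAC (SD, n = 4) and 141 ± 63.9 in INR (n = 7) at day 0, with a log2 fold change of 0.79 ± 0.47 (SE, edgeR adjusted p = 0.452). From day 13 to day 60 its log2 fold change lay between 0.25 and 0.47. LOC618416 had log2 fold changes of 0.28, 0.02, 0.02, 0.00 and 0.07 over the 5 days, and the 95% interval at day 60, from -0.91 to 1.05, leaves room for a change of either sign. LILRA4 had its largest estimate at day 0, 2.12 ± 0.95 (edgeR adjusted p = 0.293, unadjusted p = 0.0283), which fell to 0.48 without animal 31 (7.30 CPM that day).

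With 1 value per animal, the mean over days with day 0 included, the supplement groups of BRD cattle were not separated either. The AAC minus INR difference in mean log2 CPM was 0.47 for LOC790255 (7.39 ± 0.73 against 6.92 ± 0.76, exact permutation p = 0.339), 0.22 for LOC618416 (p = 0.824) and 0.26 for LILRA4 (p = 0.752). The COMBO minus INR differences were 0.08, -0.42 and 0.37, and the AAC minus COMBO differences were 0.38, 0.63 and -0.10. All 9 two-sided exact p-values were 0.975 or 1 after adjustment over the 9, where the smallest p the design allows is 0.00606 for 4 against 7 animals, 0.0167 for 3 against 7 and 0.0571 for 4 against 3. The sign could depend on 1 animal: the AAC minus INR difference of LILRA4 was -0.42 without animal 31.

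The healthy cattle, which had led to the choice of these genes, are described without a test. Their mean LOC790255 level over animals was 54.5 ± 21.9 CPM in AAC, 87.99 ± 26.58 in COMBO and 189 ± 101.8 in INR (SD, n = 4 each), so that INR was 3.47 times AAC. LOC618416 was 14.9, 25.4 and 53.6 CPM in the same order (3.59 times), and LILRA4 was 0.559, 1.52 and 3.90 CPM (6.98 times). The INR animals did not overlap with the AAC animals for LOC790255 or LOC618416, as was so for 1.53% of all genes tested in that direction. In BRD cattle the corresponding INR-to-AAC values were 0.728, 0.943 and 0.682. The difference between these 2 patterns was not tested, since the healthy values chose the genes.

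Across disease status, both LOC genes had higher estimates in BRD than in healthy cattle on all 5 days, but no day passed the FDR threshold. The contrast was the equal-weight mean of the BRD minus healthy difference in AAC, COMBO and INR. It called 3 genes (0.0158%) at day 0, 0 (0%) at day 13, 1 (0.00528%) at day 28, 0 (0%) at day 45 and 1 (0.00528%) at day 60 with edgeR. For the days with 0 calls, an unadjusted p under 0.05 was found for 716 genes (day 13) and 800 genes (day 45), and DESeq2 called 36 and 31 genes. The LOC790255 level was 26.7 to 449 CPM in the 14 BRD cattle at day 0 (median 137) and 27.8 to 297 in the 12 healthy cattle (median 106.7), and the groups overlapped widely. Its log2 fold change was 0.89 ± 0.31 (SE) at day 0, 0.43 at day 13, 0.64 at day 28, 0.78 at day 45 and 0.86 ± 0.31 at day 60. The unadjusted p-values from edgeR were 0.00542, 0.182, 0.0418, 0.0145 and 0.00726, with adjusted values of 0.375, 1, 0.571, 1 and 1. Of the 15 tests of the receptors, 9 (LILRA4 at day 45 among them) had an unadjusted p under 0.05 in edgeR and 9 in DESeq2, and 0 passed adjustment in either. Of all genes, 3.64% to 8.63% had an unadjusted p under 0.05 in edgeR over the 5 days. The healthy libraries of this contrast had led to the choice of the receptors, and the LOC genes move together. The count for the receptors therefore cannot be set against that share as a test. LOC618416 followed with log2 fold changes of 0.96, 0.48, 0.66, 0.82 and 0.92. Much of the day 0 estimates came from COMBO animal 16, without which they were 0.19 for LOC618416 and 0.40 for LOC790255. Since the same animals enter on every day, the 5 days are not independent. The edgeR fit had no animal term and estimated the spread as if all libraries were independent, so its p-values may be too small.

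An exact permutation of disease status within supplement, on 1 value per animal, gave a BRD minus healthy difference of 0.62 on the log2 scale for LOC790255 (p = 0.0896), 0.62 for LOC618416 (p = 0.106) and 0.28 for LILRA4 (p = 0.630), with adjusted p-values of 0.160, 0.160 and 0.630. This test was added after the data were seen. It uses the healthy cattle whose results led to the choice of the genes, so its p-values are not independent of that choice. All healthy COMBO cattle were in pen 5 and all BRD COMBO cattle in pen 6, so status and pen cannot be told apart in COMBO. The BRD minus healthy differences were not alike in the 3 supplement groups. For LOC790255 they were 1.71 in AAC, 0.62 in COMBO and -0.47 in INR, and for LOC618416 they were 1.70, 0.41 and -0.25. These within-supplement values are a description, because the healthy AAC and INR animals had chosen the genes. The 4 BRD AAC animals, at 99 to 329 CPM, did not overlap with the 4 healthy AAC animals, at 39.8 to 86.9 CPM, for LOC790255, nor did they for LOC618416 (32.4 to 67.1 against 11.2 to 17.6 CPM). Such a separation with BRD higher was seen for 5.72% of all genes tested. Pens 2 and 8 held these same animals, so their separation within each pen follows from that above and is no further result. In pen 2, LOC790255 was 195 and 329 CPM in the BRD animals and 42.2 and 49.1 in the healthy ones, and in pen 8 it was 99 and 133 against 39.8 and 86.9.

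**Figure D3:**
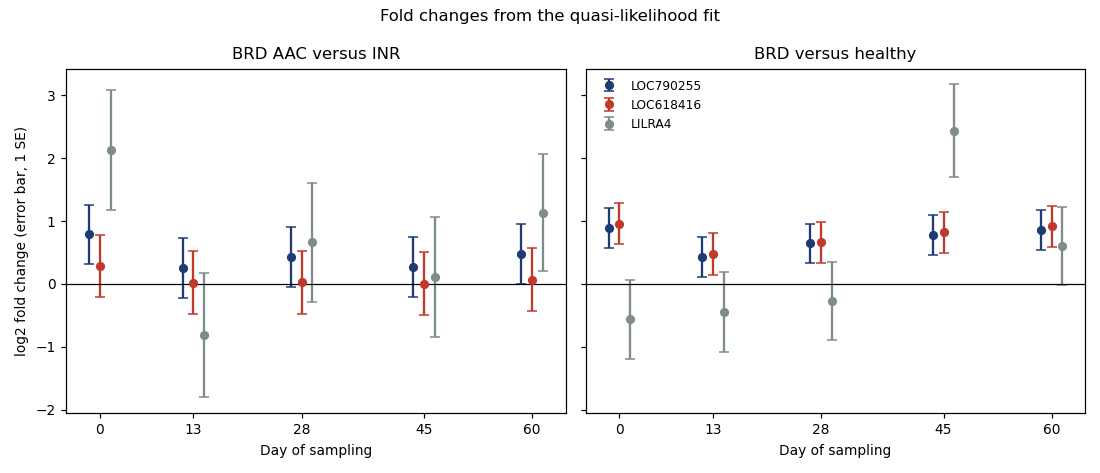
Log2 fold change (points, with 1 SE as error bars) of each receptor at each day, for BRD AAC against BRD INR cattle (left) and BRD against healthy cattle (right). LOC790255 and LOC618416 lie above 0 on every day in the right panel, from 0.43 to 0.96, and LILRA4 stands apart at day 45, at 2.44.

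Over time, LOC790255 and LOC618416 did not change detectably in either status. With animal as a block, the edgeR F-test of any change from day 0 gave an adjusted p of 0.875 and 0.837 in BRD cattle, where 7337 genes (38.7%) were called, and of 0.912 and 0.874 in healthy cattle, where 4942 genes (26.1%) were called. The fitted changes from day 0 ran from -0.14 to 0.13 on the log2 scale for both genes in both groups. LILRA4 was not called in BRD cattle (edgeR adjusted p = 0.502, log2 changes of 0.73, 0.36, 0.58 and 0.85 at days 13, 28, 45 and 60). In healthy cattle its fitted changes were -0.03, 0.32, -1.84 and -0.42 at the same days, given without a test because the healthy LILRA4 values, day 45 among them, had led to its choice.

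The day 45 values of LILRA4 in healthy cattle stood apart. The counts were 0 in 5 of the 12 libraries (AAC animals 46 and 48, COMBO animals 3 and 42 and INR animal 10) and at or under 3 in 7, whereas none of the 14 BRD libraries of that day was at or under 3. The INR animals 50, 30 and 7 stayed at 6.50, 3.24 and 3.03 CPM. COMBO animals 6 and 57 went from 3.07 and 2.74 CPM at day 28 to 0.429 and 0.0228 at day 45 and to 2.17 and 1.61 at day 60. At the other days and in BRD cattle, 8 libraries in all were at or under 3 counts. Among the 13695 genes with a mean of at least 1 CPM, LILRA4 was the 1 gene at or under 3 counts in at least 50% of the healthy day 45 libraries and in under 10% of all others. The search was made after its values were seen, so finding LILRA4 is no test. In the other groups of status and day, the same search found HBG at healthy day 0 and no further gene. The BRD versus healthy estimate of LILRA4 at day 45, 2.44 ± 0.74, rests on the near-empty healthy libraries of that day and has no meaning as a fold.

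The 3 receptors were next compared with each other across the 14 BRD animals, using animal means of log2 CPM. LOC790255 and LOC618416 rose and fell together, with Pearson's r = 0.81 (permutation p = 0.00065, adjusted over 3 pairs 0.00195) and Spearman's rho = 0.675 (permutation p = 0.00981, adjusted 0.0294). Without animals 23 and 18, the animals farthest from the median and the lowest for both genes, r was 0.48 (permutation p = 0.113), so the relation rests in part on those. LOC790255 and LILRA4 had r = 0.52 (permutation p = 0.056) and rho = 0.464 (permutation p = 0.098), and r was 0.54 without the same 2 animals. LOC618416 and LILRA4 had r = 0.08 (permutation p = 0.795) and rho = -0.06 (permutation p = 0.833). Within the 7 BRD INR cattle the 3 values of r were 0.91 (permutation p = 0.00972), 0.40 (permutation p = 0.367) and 0.07 (permutation p = 0.863), and the first was 0.33 without animals 23 and 27.

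In the 12 healthy animals, r was 0.93, 0.92 and 0.87 for the same pairs, given without a test because these animals chose the genes. After each animal's own mean was subtracted, the libraries gave rho = 0.926 between LOC790255 and LOC618416, 0.252 between LOC790255 and LILRA4 and 0.271 between LOC618416 and LILRA4. The LOC pair therefore moved together from day to day as well as between animals, with values of 0.936 in BRD and 0.903 in healthy cattle. These libraries share animals and days, and reads shared between near-identical genes would also move both.

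**Figure D4:**
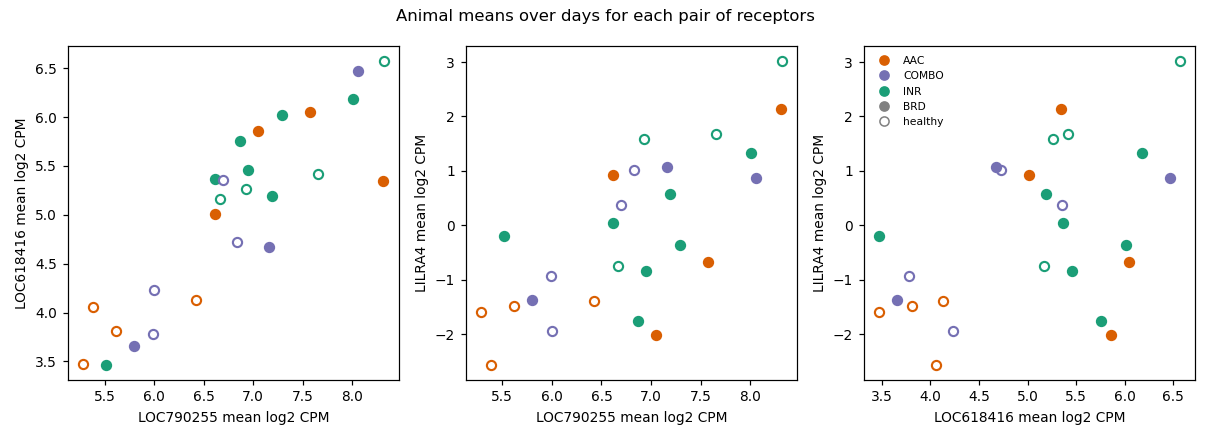
Mean log2 CPM of each animal for each pair of receptors, with BRD animals as filled and healthy animals as open circles, coloured by supplement. In the left panel the BRD animals lie along a rising band (r = 0.81), with animals 18 and 23 at the lower left, and in the right panel they show no slope (r = 0.08).

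The genes most like each receptor were taken as a description, by rank correlation over the 26 animal means and over all libraries after the animal means were subtracted. Across animals, the genes nearest to LOC790255 were LOC618416 (rho = 0.858), LOC112445615 (0.841) and NTAN1 (0.714). Those nearest to LOC618416 were LOC790255, LOC751811 (0.705) and DLG5 (0.703), and those nearest to LILRA4 were CCDC114 (0.750), LOC100852090 (0.742) and LOC112445615 (0.700). LOC112445615 was among the 3 nearest of both LOC790255 and LILRA4, and like the receptors it was listed by RefSeq without a chromosome, as were 159 (0.840%) of the genes tested. Between animals it held 86.9% of its variance. Within animals, LOC100139209, a pseudogene without a chromosome, followed LOC618416 in the order for LOC790255 (0.901) and followed LOC790255 in that for LOC618416 (0.851), with LOC112445615 (0.834) and ARHGEF40 (0.804) next. For LILRA4 no gene passed 0.367 within animals (LOC104975822), followed by MAP2K7 (0.356) and SH2B2 (0.336).

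A list of 12 genes that carry signals from these receptors was examined next. In BRD AAC against INR cattle, PLCG2, a phospholipase downstream of SYK that is also prominent in B cells, was the 1 gene of the 12 to pass, with log2 fold changes of -0.84 at day 0, -0.998 at day 13 and -1.33 at day 45 (edgeR adjusted p = 0.0972, 0.0411 and 0.00561). Of all genes, 1.18%, 0.924% and 0.127% were called on those days. The adaptors FCER1G, TYROBP and HCST did not pass on any day. Over days, 6 of the 12 were called in BRD and 7 of 12 in healthy cattle, led by the kinase SYK, the phosphatase INPP5D and the exchange factor VAV1 in the first and by VAV1, PTPN6 and SYK in the second, against the 38.7% and 26.1% of all genes given above. Within animals, the mean of the list gave rho = 0.161 with LOC790255, 0.199 with LOC618416 and -0.13 with LILRA4.

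Of 18 other paired receptors and leukocyte receptor complex genes, 16 were tested and none passed in either contrast on any day with edgeR. Those with the smallest p in BRD AAC against INR cattle at day 0 were the Fc receptor FCGR2A (log2 fold change 1.06, adjusted p = 0.142), the paired receptor PILRA (0.67, adjusted p = 0.205) and the osteoclast-associated receptor OSCAR (1.87, adjusted p = 0.214), all by edgeR. Over days, 7 of the 16 were called in BRD and 4 of 16 in healthy cattle, near the 38.7% and 26.1% of all genes, with the activating receptor CD300LB and the Fc receptor FCGR3A among the 3 of smallest p in both. Within animals, the mean of this list followed LOC790255 (rho = 0.567) and LOC618416 (0.605) more closely than it followed LILRA4 (0.094).

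Cell markers gave a measure of blood composition, and in bulk blood fewer cells of a type and less RNA per cell cannot be told apart. Within animals, LOC790255 moved with the mean of 10 monocyte markers (rho = 0.466) and of 9 neutrophil markers (0.419), and against that of 8 B cell markers (-0.42) and 9 T cell markers (-0.21). LOC618416 gave 0.410, 0.399, -0.37 and -0.18. Over the 12 lists, the values of LILRA4 ran only from -0.13 to 0.122. Across the 26 animal means, the values of all 3 receptors ran from -0.35 (LOC790255 with plasmacytoid dendritic cell markers) to 0.315 (LILRA4 with eosinophil markers). LILRA4 gave -0.34 with the mean of the 16 tested genes that mark plasmacytoid dendritic cells in humans, and did not rise with that mean. The single genes differed: DERL3, BLNK and MZB1 were lowest (-0.46, -0.38 and -0.38), and PTPRS, SMPD3 and RUNX2 highest (0.20, 0.20 and 0.19). BLNK is shared with B cells, and LILRA4 gave -0.26 with the B cell markers. The part of B cells in the value of the list was not tested. Among the 16 genes, IL3RA was near 0 (mean 0.141 CPM) and TCF4, IRF8 and SPIB were at 111.7, 66.02 and 347 CPM.

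**Figure D5:**
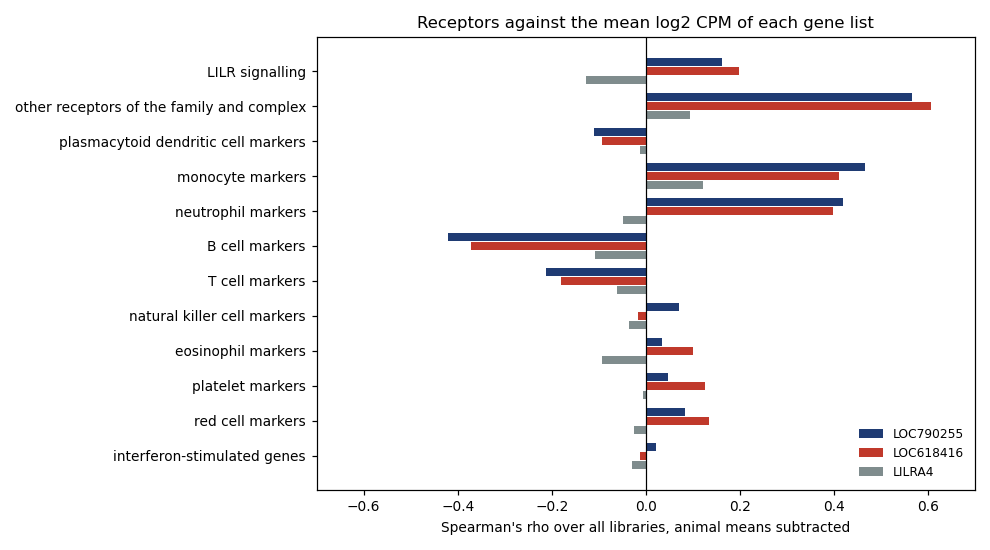
Spearman's rho between each receptor and the mean log2 CPM of each gene list, over all libraries after the mean of each animal was subtracted (bars, 1 colour per receptor). Bars of LOC790255 and LOC618416 run to the right for monocyte, neutrophil and other receptor lists, up to 0.605, and to the left for B cells, and those of LILRA4 stay short.

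In BRD cattle, B cell markers differed between supplement groups beside these receptors. Of the 8, 2 were lower in AAC than in INR at day 0, 1 at day 13, 4 at day 28, 1 at day 45 and 4 at day 60, with medians of -0.77 to -1.02 on the log2 scale (medians of all genes -0.03 to 0.00). Of all genes, 1.18%, 0.924%, 0.713%, 0.127% and 2.03% were called on these days in either direction. Without animal 21, the calls over all genes fell to 11, 22 and 13 at days 0, 13 and 28. MS4A1, which encodes the B cell surface protein CD20, and CD79B, a signalling chain of the B cell receptor, were among those lower at day 28, with log2 fold changes of -1.04 and -1.16 (edgeR adjusted p = 0.0812 and 0.0825). The summed level of the 8 was 998 to 1991 CPM in the BRD AAC libraries and 1467 to 4908 in BRD INR. The summed level of the 10 monocyte markers was 3080 to 11453 CPM in BRD AAC and 1045 to 7431 in BRD INR. The part of these cell markers in the AAC minus INR estimates of the receptors was not tested.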

How the data were processed

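Whole blood RNA collected in Tempus tubes was sequenced from stranded mRNA libraries. Per the labels and the study's methods, the authors trimmed reads with Trimmomatic 0.39, aligned them with HISAT2 to assembly ARS-UCD1.3, used StringTie 2.2.0 for transcripts and exported gene counts with prepDE. The deposited values are counts, not normalized, which are derived from coverage and can split reads between near-identical genes.

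The genes and lists were chosen with earlier results of these data known. Of 32395 genes, 18937 passed filterByExpr over 30 groups of supplement, status and day. All 129 libraries entered 1 edgeR 4.0.16 quasi-likelihood fit (R 4.3.3, TMM factors, common dispersion 0.152, Benjamini-Hochberg FDR under 0.10, the edgeR threshold of the study). The study kept only genes that a mixed model (glmmSeq) also called, and that model was not run here. Changes over days used animal as a block. Animal means of log2 CPM (prior count 2) were compared by 2-sided exact permutation, and correlations by 100000 permutations. Each contrast by day held 1 library per animal. The edgeR fit behind it had no animal term, so the spread was estimated as if all libraries were independent. Other genes were named as the 3 nearest to each receptor by rank correlation, and from 12 gene lists by smallest p (at most 3 per comparison). Alternatives were DESeq2 1.42.0, RLE factors, no filter (26992 genes), a trended dispersion, limma 3.58.1 voom with a correlation within animals, BRD libraries alone, unbalanced supplements, no library of animal 40 at day 60, a prior count of 0.5, no day 0, and each animal left out. The test of BRD against healthy animal means was added after seeing the data. Values of some list genes are not reported here. The scripts were tested on simulated data. Figures were drawn with matplotlib 3.10.9.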

Additional observations from a re-analysis of the deposited data

Results flagged for a closer look

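Within each group and day of 4 or 7 animals, the highest or lowest value was set against the others by Dixon's ratio, in 77 groups of CPM values and of animal ratios. For independent groups of normal values, chance gives about 1 in 20. Here the same animals recur over days and the LOC genes move together, so no excess over chance is read from the number flagged. Of the 77 groups, 12 held a sample far from the rest. For LOC790255, these were healthy AAC animal 46 at day 60 (87.8 CPM, others 41.26 to 48.7), healthy COMBO animal 6 at day 28 (131.1 CPM, others 83.05 to 90.2) and healthy INR animal 50 at day 0 (297 CPM, others 113.195 to 139). For LOC618416, they were BRD INR animal 23 at day 0 (8.69 CPM, others 46.1 to 62.3) and day 13 (16.3 CPM, others 42.43 to 61.7), and healthy INR animal 50 at day 0 (90.6 CPM, others 30.4 to 39.1) and day 13 (124.6 CPM, others 37.34 to 42.43). For LILRA4, they were BRD AAC animal 31 at day 0 (7.30 CPM, others 0.167 to 1.31), BRD INR animal 27 at day 28 (4.73 CPM, others 0 to 1.31) and day 45 (4.99 CPM, others 0.556 to 1.36), and healthy COMBO animal 6 at day 45 (0.429 CPM, others 0 to 0.0228). The mean count ratio of LOC790255 to LOC618416 in BRD AAC animal 31, 7.86, stood above the 2.28 to 3.04 of the other 3 animals. Animals 23, 27 and 50 each appeared on 2 days for 1 gene.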

How the results depend on the processing

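Of 1497 values recomputed under the alternatives, 1334 kept their direction and call, and no receptor gained or lost a call in a test by day or over days. What moved most was the number of all genes called. For BRD AAC versus INR (223, 175, 135, 24 and 385 genes at days 0, 13, 28, 45 and 60), DESeq2 called 497 at day 0, 385 at day 28, 243 at day 45 and 806 at day 60. Without a filter, about 1.0e+02, 54 and 146 genes were called at days 0, 28 and 60, and with the BRD libraries alone 60, 59 and 224. Limma voom with the animal as a replicate block (a correlation within animals of 0.320) called 376, 501, 331 and 1314 at days 0, 28, 45 and 60, and turned the LILRA4 estimate at day 45 from 0.11 to -0.16. For BRD versus healthy (3, 0, 1, 0 and 1 genes), DESeq2 called 98, 36, 40, 31 and 30 over the 5 days, the replicate block called 0 at day 0, 8 at day 28 and 0 at day 60, and unbalanced supplements called 0 at days 0 and 28. For the change over days, with no replicate block 3015 genes in place of 7337 were called in BRD cattle and 1263 in place of 4942 in healthy cattle. The cause of these shifts was not tested. Blocks rest on repeated sampling of the same animals.

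Leaving out 1 animal gave 11 (without 21) to 604 (without 41) genes for BRD AAC versus INR at day 0, 22 (21) to 241 (31) at day 13, 13 (21) to 562 (27) at day 28, 7 (9) to 273 (23) at day 45 and 19 (43) to 1401 (27) at day 60. For BRD versus healthy it gave 0 to 317 (without 16) at day 0, 0 to 12 (7) at day 13, 0 to 11 (43) at day 28, 0 to 1 (18) at day 45 and 0 to 2 (18) at day 60.

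Leaving out animal 16 moved the BRD versus healthy estimates of day 0 most, for LOC618416 from 0.96 to 0.19 and for LOC790255 from 0.89 to 0.40. Signs of small estimates also turned when 1 animal was left out. In BRD AAC versus INR, the LOC618416 log2 fold change ran from 0.00 (-0.0018) to 0.51 at day 0, -0.15 to 0.17 at day 13, -0.13 to 0.19 at day 28, -0.16 to 0.21 at day 45 and -0.13 to 0.30 at day 60. LOC790255 ran from -0.044 to 0.59 at day 45 and -0.21 to 0.85 at day 60, with the lowest value without animal 31 both times. LILRA4 ran from -0.064 to 1.60 at day 28 and -0.50 to 0.79 at day 45, and in BRD versus healthy from -0.90 to 0.34 at day 13 and -0.60 to 0.051 at day 28. Of the animal means, AAC minus COMBO ran from -0.22 to 0.91 for LOC790255, 0.00 (-0.0017) to 1.402 for LOC618416 and -0.88 to 0.60 for LILRA4. AAC minus INR ran from -0.095 to 0.40 for LOC618416 and -0.42 to 0.97 for LILRA4. COMBO minus INR ran from -0.44 to 0.69 for LOC790255, -1.18 to 0.22 for LOC618416 and -0.070 to 1.15 for LILRA4. Pearson's r over BRD animals ran from -0.12 to 0.18 for LOC618416 with LILRA4 and from 0.38 to 0.60 for LOC790255 with LILRA4, with an adjusted permutation p of 0.0453 without animal 23.

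Of the 3 receptors, LILRA4 had the lowest counts, at a median of 50 per library. The part of depth in its spread over days was not tested. With 3 to 7 BRD animals per supplement, the SE for LOC790255 was near 0.47 on the log2 scale. In BRD AAC against INR cattle at day 0, PLCG2 passed with an edgeR p of 0.00114 (adjusted p = 0.0972). LILRA4, with an SE of 0.95, was not called that day at an estimate of 4.36-fold (edgeR adjusted p = 0.293). Differences of 2-fold and somewhat more between supplement groups could therefore be missed for LOC790255, and larger ones for LILRA4.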

Other observations

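Within animals, LOC790255 had rho = 0.070 with 7 natural killer cell markers, 0.034 with 5 eosinophil markers, 0.048 with 8 platelet markers and 0.083 with 8 red cell markers over all libraries. Interferon-stimulated genes, the antiviral response genes that plasmacytoid dendritic cells help to induce through interferon, gave 0.021 with LOC790255, -0.01 with LOC618416 and -0.03 with LILRA4. Of 17 such genes tested, 13 changed over days in BRD cattle and 3 in healthy cattle by the edgeR F-test with animal as a block (all genes, 38.7% and 26.1%), and the difference between the cattle was not tested. The summed level of the 17 was 901 to 4579 CPM in BRD AAC, 1206 to 26075 in BRD COMBO and 1013 to 15210 in BRD INR libraries.

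Of the plasmacytoid dendritic cell markers, 9 of 16 changed over days in BRD cattle and 5 of 16 in healthy cattle (all genes, 38.7% and 26.1%), with TLR7, a sensor of viral RNA, among the 3 of smallest p in both. In BRD AAC against INR cattle at day 60, the phosphatase PTPRS was higher (log2 fold change 0.79, edgeR adjusted p = 0.0894) and BLNK, an adaptor shared with B cells, was lower (-0.85, edgeR adjusted p = 0.0935). Of all genes, 2.03% were called at day 60. On the other 4 days, none of the 16 passed.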
